A study of Mus musculus with 65 samples.

Results

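Neural stem cells keep dividing in culture as long as epidermal growth factor (EGF) and basic fibroblast growth factor (bFGF) are in the medium, and begin to differentiate when both are taken away. The first step of that change in cells of young mice is covered by 10 of the 65 libraries of this RNA-seq series. They are the 5 libraries with the group name D06h_untr_young, sampled 6 h after the change to differentiation medium, and the 5 libraries named A18h_untr_young, kept in stem cell medium. They were chosen by these names, and each of 5 animals gave 1 library to each group. The cells were primary cultures from the subventricular zone of the adult brain, the niche where neural stem cells persist after birth. They were grown on poly-D-lysine and laminin in Neurobasal-A with B27, EGF and bFGF, and the change to medium without EGF and bFGF came 18 h after plating. The mice were 3 to 4 months old, 3 females and 2 males, and carried the iOSKM transgene, with which doxycycline switches on the reprogramming factors OSKM. All groups used here carry the transgene, and the 10 young libraries received no doxycycline. Comparison groups came from mice of 25 months (2 females and 2 males): untreated cells in the same 2 conditions, and cells given 2 ug/ml doxycycline and labelled 6 h in each medium. The labels do not say from which moment the 18 h in stem cell medium were counted. Medium and time therefore cannot be told apart between the young groups, and the doxycycline-treated old cells are the groups labelled 6 h in both media.

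EGF and bFGF act through receptor tyrosine kinases. The receptors start the Ras and ERK kinase cascade, which drives immediate early genes, D-type cyclins and its own feedback inhibitors, and the PI3K and Akt cascade, which keeps FoxO transcription factors out of the nucleus. In the subventricular zone, cells that stop dividing can become quiescent stem cells and astrocytes, neuroblasts of the olfactory bulb, or oligodendrocytes. Notch signalling and bone morphogenetic protein (BMP) signalling take part in that choice.

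Total counts ran from 68788580 to 106806872 per library. Mitochondrial genes took 1.43 ± 0.122% (SD, n = 5) of counts in stem cell medium and 1.54 ± 0.19% (SD, n = 5) at 6 h (exact two-sided permutation test without pairing, p = 0.341). The exact test paired by animal gave p = 0.562. Ribosomal RNA features took 1.49 ± 0.148% (SD, n = 5) of counts in stem cell medium and 1.48 ± 0.492% (SD, n = 5) at 6 h. The 6 h library of animal 3 stood at 0.641%, beside 1.46 to 1.88% in the others of its group. Neural stem cell markers were high in both groups, with 8 markers summing to 6500 to 7290 CPM (counts scaled by library size and TMM factor) in stem cell medium and 6250 to 6680 at 6 h. Among markers of other cells, 6 of 8 microglial genes, 4 of 7 endothelial genes, all 5 pericyte genes, 4 of 5 fibroblast genes, 2 of 6 ependymal genes and 3 of 7 genes of mature neurons stayed under 1 CPM in all 10 libraries. The summed levels moved from 10.8 to 11.2 down to 6.27 to 7.92 CPM for microglia, and from 13.0 to 23.6 down to 7.86 to 11.2 CPM for endothelium. They moved from 3.13 to 6.27 up to 15.8 to 25.1 CPM for fibroblasts, from 25.2 to 30.0 up to 43.9 to 51.3 CPM for ependyma, and from 35.7 to 42.1 up to 93.4 to 168 CPM for neurons. These last 3 rises lay mostly in Pdgfra, which oligodendrocyte progenitors also express, in Foxj1, and in Camk2a. The part of such cells in the results that follow was not tested. The library of animal 5 in stem cell medium stood apart from the other 4 in 20 of the groups of values checked for outliers, with lower mitotic genes and higher Apoe and Hmga2. In bulk RNA, fewer cells of a type and less RNA per cell cannot be told apart, here and in all results that follow.

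Most of the measured transcriptome differed between stem cell medium and 6 h of differentiation. Of 16949 genes tested with edgeR, 6512 rose (38.4%) and 6183 fell (36.5%) at a Benjamini-Hochberg adjusted p under 0.05. With a change of at least 2-fold as well, 2156 genes rose (12.7%) and 1548 fell (9.13%), and 163 rose and 62 fell by at least 10-fold. The median log2 change over all tested genes was 0.03 and the median size of a called change was 0.63, with a median standard error (SE) of 0.068. In 12195 of the called genes (96.1%) all 5 animals moved in the called direction, and the 2 groups did not overlap in 10671 of all tested genes (63.0%). The counts for gene lists below are read against these shares. A log2 change of 1 is a doubling from stem cell medium to 6 h. Genes annotated as lincRNA leaned upwards: of 813, 40.5% rose and 20.7% fell (median 0.27), beside 38.7% and 38.3% of 14736 protein-coding genes (median 0.01). Of 1336 antisense genes 35.3% rose and 26.1% fell (median 0.10). Across protein-coding genes Spearman's rho between the change and transcript length was -0.0238 (14736 genes, which are not independent replicates).

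**Figure D1:**
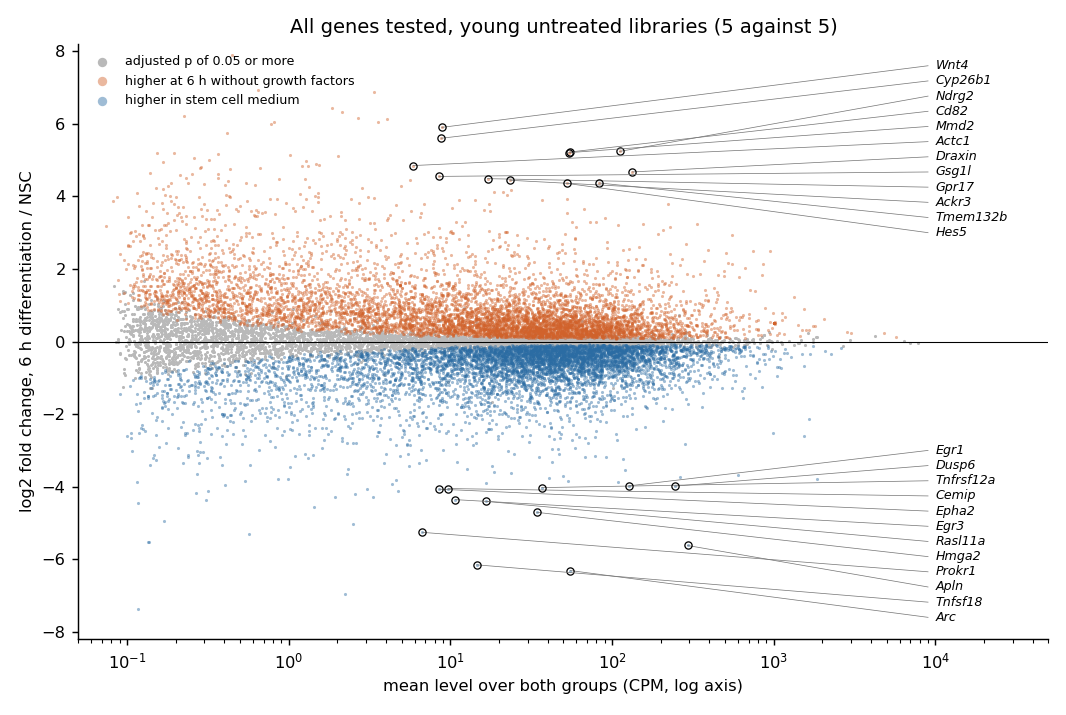
Mean level over the 10 libraries (CPM, log axis) against the log2 change from stem cell medium to 6 h of differentiation, 1 point per tested gene (16949). The 24 labelled genes are the 12 largest called changes in each direction above a mean of 5 CPM, and run from -6.31 for Arc to 5.90 for Wnt4.

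The largest falls included genes that growth factors and activity switch on within minutes. Arc (ENSMUSG00000022602, chr15:74669083-74672570, - strand), an immediate early gene best known from synapses, stood at 108, 113, 104, 116 and 107 CPM in the stem cell medium libraries of animals 1 to 5 and at 1.64, 1.07, 1.56, 1.25 and 1.4 CPM at 6 h. Its log2 change was -6.31 (SE 0.093), and the level was lost in every animal. Apln, which encodes the secreted peptide apelin, went from 576, 542, 691, 550 and 512 CPM to 9.88, 7.89, 19.8, 7.71 and 13 CPM (log2 change -5.62, SE 0.29). Hmga2, a chromatin protein of fetal and proliferating stem cells, went from 60, 56.2, 63.3, 50.1 and 99.9 CPM to 2.04, 1.99, 2.81, 1.53 and 4.18 CPM, with animal 5 highest in both conditions. Tnfsf18 fell by 6.15 on the log2 scale, Prokr1 by 5.26, Rasl11a by 4.41, the ephrin receptor gene Epha2 by 4.07, the hyaluronidase gene Cemip by 4.05, and Tnfrsf12a, the receptor of TWEAK, by 4.03. Egr3, Egr1 and Dusp6 complete the 12 and are described with their families.

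The largest rises joined signalling genes to early glial genes. Wnt4 (ENSMUSG00000036856, chr4:137277489-137299726, + strand), a secreted Wnt ligand, went from 0.298 ± 0.148 to 17.4 ± 4.18 CPM (SD, n = 5, log2 change 5.90). Cyp26b1, which breaks down retinoic acid, went from 0.356 ± 0.0733 to 17.2 ± 2.79 CPM (log2 change 5.60). Ndrg2, an astrocyte-enriched gene, stood at 5.09, 5.04, 3.41, 5.41 and 9.53 CPM in stem cell medium and at 217, 218, 147, 250 and 252 CPM at 6 h, so that the lowest 6 h library was far above the highest stem cell library. Mean Ndrg2 went on to 1230 CPM at 18 h and 1710 CPM at 48 h of differentiation. Mmd2 had the same course, with a mean of 2.85 CPM before the change and 105, 444 and 611 CPM at 6, 18 and 48 h. The G protein-coupled receptor gene Gpr17, a marker of committed oligodendrocyte precursors, went from 0.832, 1.95, 1.02, 0.927 and 2.48 CPM to 27, 44, 19.7, 30.8 and 41.2 CPM and reached a mean of 1400 CPM at 48 h. The others were the tetraspanin gene Cd82 (log2 change 5.22), the cardiac actin gene Actc1 (4.85), the axon guidance gene Draxin (4.67), Gsg1l (4.55), the chemokine receptor gene Ackr3 (4.44), Tmem132b (4.37) and Hes5 (4.36). Draxin overlaps Mad2l2 on the opposite strand, and the strand setting of the counting is not given in the sources used here.

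Feedback inhibitors of ERK fell together with most immediate early genes. Of 16 ERK feedback genes, 12 fell and 3 rose (median log2 change -0.93). Dusp6, the phosphatase that removes phosphate from ERK in the cytoplasm, stood at 486, 459, 503, 448 and 401 CPM in stem cell medium and at 25.8, 25.4, 42.7, 18.8 and 32.4 CPM at 6 h (log2 change -3.98, SE 0.21). Spry4, an inhibitor that acts between receptor and Ras, stood at 198, 196, 207, 214 and 201 CPM and then at 10.9, 12.2, 19.7, 9.89 and 16.2 CPM (-3.88, SE 0.18). In both genes all 5 animals lost most of the level and the groups lay far apart. Dusp4 fell by 3.86 and Spry1 by 2.71, while Spry2 fell by only 0.86 and the FGF-responsive ETS factor genes Etv5 and Etv4 by 0.87 and 0.59. Il17rd, which encodes the FGF signalling inhibitor Sef, rose from 7.2 ± 0.826 to 45.4 ± 6.86 CPM (SD, n = 5), Errfi1, an inhibitor of the EGF receptor, rose by 0.92 and Etv1 by 0.71. Dusp5 was the member that did not pass (log2 change -0.23).

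Immediate early genes encode short-lived transcription factors and regulators that follow ERK activity. All 25 on the list were called: 18 fell and 7 rose (median -1.09). Egr1 stood at 229, 249, 209, 267 and 242 CPM in stem cell medium and at 11.4, 17.3, 9.2, 20.3 and 17.6 CPM at 6 h (log2 change -3.98, SE 0.21). Its relatives Egr3, Egr4 and Egr2 fell by 4.36, 3.51 and 2.70. In the AP-1 family, Fosl1 fell by 2.84, Jun by 1.99 and Fos by 0.38. Junb showed a fall of 1.74, but the gene overlaps Prdx2 on the other strand, whose counts were 26.1 times as high. Jund rose by 0.89 and Fosb by 1.04, the largest rise among the 17 transcription factor genes of the list. Ier5 rose by 0.93, and Btg2, an antiproliferative gene that p53 also induces, went from 41.7 ± 2.44 to 253 ± 23.7 CPM. Gadd45b went from 1.55 ± 0.165 to 12.1 ± 1.5 CPM (log2 change 2.96, SE 0.10), so the list held genes that went strongly against its median.

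**Figure D2:**
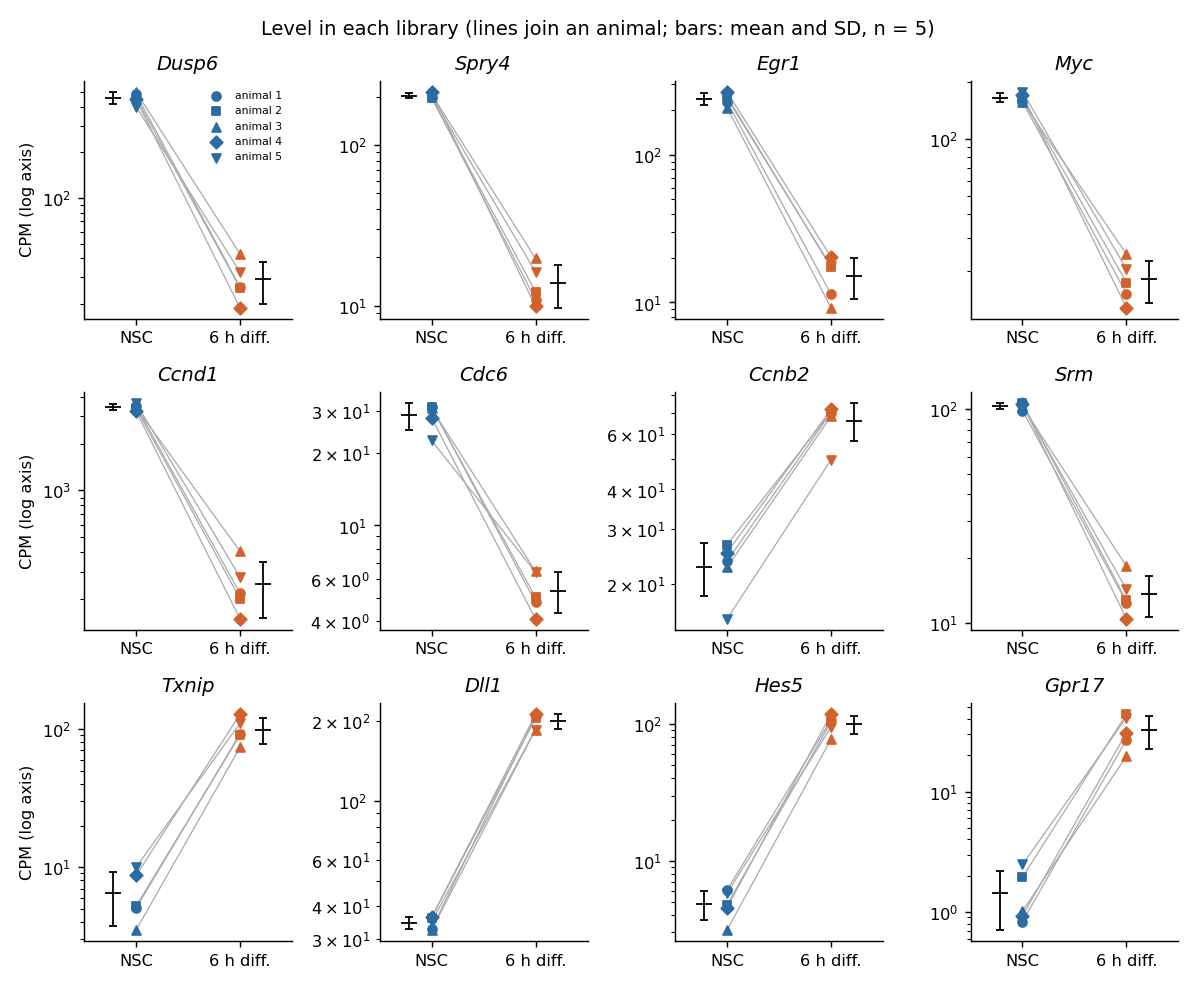
TMM-scaled CPM (log axis) of 12 genes in stem cell medium (NSC) and at 6 h, with a line per animal (n = 5) and the mean ± SD of each group. Dusp6, Spry4, Egr1, Myc, Ccnd1, Cdc6 and Srm lie lower at 6 h in all 5 animals, and Ccnb2, Txnip, Dll1, Hes5 and Gpr17 lie higher.

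Among receptor tyrosine kinase genes, the EGF receptor gene rose while the FGF receptor gene Fgfr1 fell. Of 14 tested receptor genes 8 rose and 5 fell, and of 13 ligand genes 4 rose and 7 fell. Egfr stood at 406, 396, 370, 379 and 334 CPM in stem cell medium and at 759, 750, 655, 728 and 700 CPM at 6 h (log2 change 0.93, SE 0.059). Every 6 h library was above every stem cell library. Ntrk2, the receptor of brain-derived neurotrophic factor, went from 391 ± 17.8 to 1040 ± 109 CPM, and its mean was 2100 CPM at 18 h and 3080 CPM at 48 h. Pdgfra, the platelet-derived growth factor receptor of oligodendrocyte progenitors, rose by 2.47, Erbb3 by 2.79, Erbb4 by 1.56 and Fgfr3 by 0.77. Fgfr1 fell by 0.90, the insulin-like growth factor receptor gene Igf1r by 0.92 and the insulin receptor gene Insr by 0.58. Hbegf, whose product binds the EGF receptor, stood at 92.2, 86.6, 105, 70.1 and 108 CPM and then at 6.16, 6.5, 7.61, 4.69 and 10.2 CPM (-3.71, SE 0.21). It was the ligand with the largest fall, while the insulin-like growth factor gene Igf1 rose by 2.76.

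Genes that FoxO factors are known to drive mostly rose. Of 19 listed FoxO targets 14 rose and 5 fell (median 1.12 beside 0.03 for all genes). Txnip, which limits glucose uptake, stood at 5.05, 5.23, 3.5, 8.7 and 9.98 CPM in stem cell medium and at 92.2, 90.2, 73.8, 128 and 110 CPM at 6 h (log2 change 3.92, SE 0.30). Sesn3, an inhibitor of mTORC1, went from 283 ± 14.1 to 1600 ± 312 CPM, the atypical cyclin gene Ccng2 from 20.7 ± 3.99 to 96.1 ± 7.7 CPM, and the PI3K inhibitor gene Pik3ip1 from 23.6 ± 2.12 to 109 ± 16.6 CPM. Fbxo32, a ubiquitin ligase gene of muscle atrophy, rose by 2.43. The insulin receptor substrate genes Irs2 and Irs1, also FoxO targets, fell by 1.53 and 1.37. Among the factors, Foxo4 rose by 1.31 and Foxo3 by 0.57, Foxo6 fell by 0.94 and Foxo1 by 0.15.

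The cell cycle genes split by phase, with G1 and replication genes lower and mitotic genes higher at 6 h. Ccnd1, the cyclin that links growth factors to the cell cycle, stood at 3490, 3370, 3420, 3230 and 3650 CPM in stem cell medium and at 218, 201, 405, 149 and 277 CPM at 6 h (log2 change -3.78, SE 0.25). Its opposite-strand neighbour LTO1 had 0.326 of its counts. Ccnd2 stood at 2680, 2720, 2480, 2370 and 2940 CPM and then at 396, 397, 556, 272 and 539 CPM (-2.61, SE 0.18). For both cyclins the highest 6 h library was that of animal 3 and the lowest that of animal 4. Of the 15 genes for G1 cyclins, their kinases, Rb and E2F, 11 fell and 4 rose (median -0.99). The cyclin E genes Ccne2 and Ccne1 fell by 1.70 and 1.27, the transcription factor genes E2f1 and E2f3 by 1.47 and 1.12, and the phosphatase gene Cdc25a by 1.24. The rises were those of Cdk6 (1.48), Cdk4 (0.13) and the repressive pocket proteins Rbl2 (1.34) and Rb1 (0.32). Of 7 Cdk inhibitor genes 4 rose and 3 fell. Cdkn1c, the gene of p57, went from 1.02 ± 0.121 to 8.1 ± 1.98 CPM and Cdkn1b, the gene of p27, from 104 ± 5.77 to 150 ± 12.1 CPM, while Cdkn1a, the gene of p21, fell by 0.16. Gm44732, on the strand opposite to Cdkn1c, had 0.452 of the counts of Cdkn1c.

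Of 40 DNA replication genes 33 fell and 3 rose (median -0.59, Tyms, Tk1, Prim2 and Gins1 not called). With the replicate block Tyms was called lower as well. The falls were larger among the genes that license origins than among those that copy DNA: the median was -0.85 over 16 licensing and helicase genes and -0.46 over 24 genes of synthesis and nucleotide supply. Cdc6, which loads the helicase on origins, stood at 31.2, 31, 30.7, 28.1 and 22.6 CPM in stem cell medium and at 4.79, 5.02, 6.44, 4.08 and 6.39 CPM at 6 h (log2 change -2.42, SE 0.14). Mcm2, a helicase subunit gene, stood at 177, 193, 188, 182 and 158 CPM and then at 81.8, 81.3, 93.5, 70.7 and 79.8 CPM (-1.14, SE 0.070). Neither gene had overlapping groups. Ung, which removes uracil from DNA, fell by 3.44 and Mcm3 by 1.64. The sliding clamp gene Pcna fell by 0.59 and the ribonucleotide reductase gene Rrm2 by 0.47, while Rrm1, Rfc2 and Gins4 rose by 0.26, 0.22 and 0.30.

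Of 41 mitosis genes 38 rose and 1 fell (median 0.67). Ccnb1, cyclin B1, stood at 76.7, 89.8, 87.3, 90.9 and 48.8 CPM in stem cell medium and at 149, 148, 152, 139 and 102 CPM at 6 h (log2 change 0.81, SE 0.17). Ccnb2 stood at 23.7, 26.7, 22.6, 25.2 and 15.5 CPM and then at 70.2, 70.5, 68.3, 71.9 and 49.7 CPM (1.54, SE 0.15), the largest rise of the list. The library of animal 5 was the lowest of its group for both genes in both conditions, and in each animal the 6 h level was the higher. Mki67, the gene of the proliferation antigen Ki-67, stood at 353, 372, 349, 355 and 262 CPM and then at 541, 615, 382, 550 and 465 CPM, and Top2a, topoisomerase II alpha, at 353, 388, 367, 375 and 260 CPM and then at 536, 558, 532, 519 and 453 CPM. The spindle genes Aspm, Nusap1 and Cenpf rose by 1.13, 1.01 and 0.98. Cdk1 itself stood at 100 ± 17 and 120 ± 13 CPM and did not pass (edgeR adjusted p = 0.075), and neither did Mad2l1. The single fall was that of Mybl2 (1.06), a partner of the complex that switches on mitotic genes and itself an E2F target. With the animal as a replicate block, 39 rose and 1 fell, Cdk1 among the 39.

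Promoters of replication and mitosis genes are shown here because these groups moved in opposite directions and are known to use different sites. E2F factors bind sites such as TTTCCCGC and TTTGGCGC. Many G2 and mitosis promoters instead hold a cell cycle homology region (CHR), TTTGAA, near CCAAT boxes. The windows are from RefSeq (assembly GRCm38.p6) and run from 250 bases before to 50 after the annotated start, written on the gene's strand. Capitals mark matches on either strand, of E2F only in the replication genes and of CHR and CCAAT only in the mitosis genes. Cdc6 (chr11:98907901-98908200, + strand) and Mcm3 (chr1:20820263-20820562, - strand) hold E2F matches, and Ccnb2 (chr9:70421505-70421804, - strand) and Aspm (chr1:139454523-139454822, + strand) hold CHR and CCAAT matches:
Cdc6: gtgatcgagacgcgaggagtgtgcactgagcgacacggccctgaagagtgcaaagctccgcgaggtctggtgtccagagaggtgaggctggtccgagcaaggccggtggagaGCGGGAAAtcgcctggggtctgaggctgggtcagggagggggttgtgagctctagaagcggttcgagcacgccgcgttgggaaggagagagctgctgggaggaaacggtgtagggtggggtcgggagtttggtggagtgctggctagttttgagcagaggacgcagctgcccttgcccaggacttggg
Mcm3: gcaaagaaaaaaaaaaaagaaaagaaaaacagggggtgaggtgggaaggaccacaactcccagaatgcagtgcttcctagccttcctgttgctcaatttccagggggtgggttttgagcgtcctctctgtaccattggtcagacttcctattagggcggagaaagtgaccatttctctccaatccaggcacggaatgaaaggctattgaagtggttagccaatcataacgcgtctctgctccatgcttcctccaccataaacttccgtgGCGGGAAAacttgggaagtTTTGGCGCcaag
Ccnb2: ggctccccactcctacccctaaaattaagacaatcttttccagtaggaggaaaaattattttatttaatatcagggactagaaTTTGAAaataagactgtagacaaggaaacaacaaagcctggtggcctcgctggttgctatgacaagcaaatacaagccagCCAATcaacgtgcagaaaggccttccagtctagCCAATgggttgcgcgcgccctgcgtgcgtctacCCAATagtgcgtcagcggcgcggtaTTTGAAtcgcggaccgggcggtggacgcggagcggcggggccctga
Aspm: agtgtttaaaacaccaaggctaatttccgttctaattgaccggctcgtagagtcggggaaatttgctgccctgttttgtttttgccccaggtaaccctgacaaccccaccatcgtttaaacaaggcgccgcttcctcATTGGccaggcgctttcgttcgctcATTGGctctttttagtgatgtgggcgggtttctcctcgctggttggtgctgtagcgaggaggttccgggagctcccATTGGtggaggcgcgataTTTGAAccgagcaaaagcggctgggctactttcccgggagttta
At least 1 E2F match was in 11 of 32 replication genes with a window (34.4%), in 0 of 33 mitosis genes and in 1.8% of 27025 genes. CHR and CCAAT together were in 20 of 33 mitosis genes (60.6%), in 3 of 32 replication genes and in 7.97% of all. CCAAT, with or without CHR, was in 24 of 33 mitosis genes (72.7%) and 41.1% of all genes. It was also in 19 of 32 replication genes (59.4%), Mcm3 among them. None of these motifs contains another, and a match describes the window only. Over all 12122 tested genes with a window, 44.3% of those with an E2F match fell and 31.6% rose, beside 37.6% and 39.0% of those without.

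By 18 h the genes of both phases stood far below their level in stem cell medium. The 41 mitosis genes summed to 2260 to 3400 CPM in the 5 stem cell libraries, 4070 to 5210 at 6 h, 150 to 224 at 18 h and 134 to 173 at 48 h. The 40 replication genes summed to 2610 to 3300 CPM, then 1810 to 2260, 538 to 582 and 596 to 640. So all 5 of the 6 h libraries lay above every stem cell library for mitosis and below it for replication, and every member of both lists had a lower mean at 18 h than in stem cell medium. The 15 G1 genes summed to 6710 to 7670 CPM, 1400 to 1930, 1040 to 1180 and 816 to 911, a sum that in stem cell medium was mostly Ccnd1 and Ccnd2. The median log2 ratio of the 15 genes to stem cell medium was -1.0 at 6 h, -1.65 at 18 h and -1.81 at 48 h. These sums are scaled over all 65 libraries, and the later times share the stem cell libraries with the 6 h comparison.

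**Figure D3:**
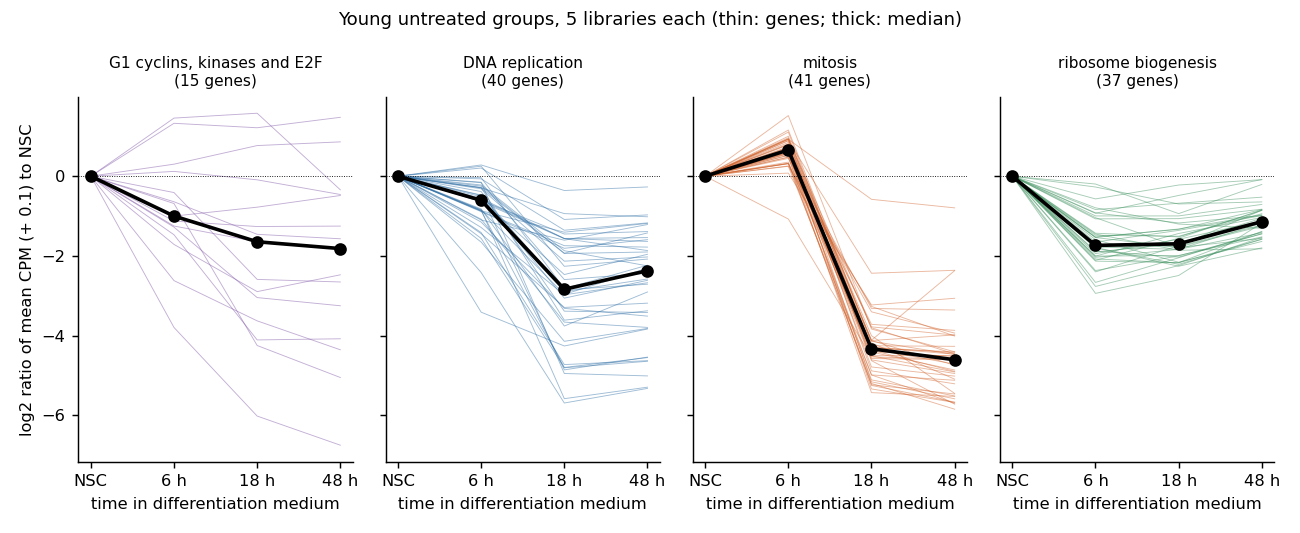
Log2 ratio of mean CPM (plus 0.1) to the mean in stem cell medium at 6, 18 and 48 h of differentiation in young cells (5 libraries each), with a thin line per gene and a thick line for the median. The medians at 6 h are -1.0 for 15 G1 genes, -0.61 for 40 replication genes, 0.66 for 41 mitosis genes and -1.73 for 37 ribosome biogenesis genes. At 18 h the mitosis median is -4.33.

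Myc, the transcription factor that couples mitogens to growth, stood at 157, 165, 157, 170 and 177 CPM in stem cell medium and at 15.2, 17.4, 24.6, 12.8 and 20.5 CPM at 6 h (log2 change -3.19, SE 0.16). All 5 animals lost most of it, and the mean came back to 35.7 CPM at 18 h and 80.6 CPM at 48 h. Myc is also one of the transgene's factors. The table holds 4 transgene features apart from the gene. Mycl, a Myc relative, rose by 2.45. Of 9 partners and antagonists 5 rose and 3 fell, and Mnt, an antagonist, was not called. Among antagonists that compete for the partner Max, Mxd1 went from 8.64 ± 0.746 to 59.4 ± 5.54 CPM, Mxi1 from 37.2 ± 6.37 to 106 ± 16.8 CPM and Mxd4 from 241 ± 10.4 to 440 ± 19.5 CPM. Max itself fell by 0.74.

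Ribosome biogenesis genes, a classical group of Myc targets, fell without exception in edgeR's test: 37 of 37, of which 29 by at least 2-fold (median -1.72, beside 36.5% of all genes). The list holds 30 genes of nucleolar proteins, 5 of RNA polymerase I and 2 of polyamine synthesis, Srm and Odc1. Srm, spermidine synthase, stood at 98.8, 107, 103, 106 and 105 CPM in stem cell medium and at 12.4, 12.7, 18.4, 10.4 and 14.3 CPM at 6 h (log2 change -2.93, SE 0.13). The nucleolar genes Ppan, Gnl3 and Nop2 fell by 2.77, 2.66 and 2.03, fibrillarin (Fbl) by 1.58 and nucleolin (Ncl) by 0.91. The RNA polymerase I subunit gene Polr1b fell by 2.11, and Polr1c, which RNA polymerase III also uses, by 0.26. The smallest fall was that of Odc1, ornithine decarboxylase, with 0.18. The structural genes of the ribosome moved little: of 76 cytosolic ribosomal protein genes 47 fell and 2 rose, none by 2-fold, with a median of -0.13. Their summed level ranged from 35400 to 36700 CPM in stem cell medium and from 32100 to 35500 CPM at 6 h. Ribosomal protein genes have many pseudogenes, so reads can be split between copies.

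Myc binds the E-box CACGTG. It was present in the promoter window of 7 of 31 ribosome biogenesis genes (22.6%) and of 8.09% of all genes. Among the 12122 tested genes with a window, 1356 held it. Lists that mostly rose held it too: 4 of 17 lysosome and autophagy genes (23.5%) and 4 of 19 FoxO genes (21.1%). The share was 6.06% of mitosis genes and 5.88% of oligodendrocyte lineage genes, which also mostly rose. Among other lists with more falls than rises, it was in 3 of 11 G1 genes (27.3%) and 5 of 21 cholesterol genes (23.8%). It was in 5 of 32 replication genes (15.6%) and 0 of 11 ERK feedback genes. Whether Myc acts at these sites was not tested. Nop2, a nucleolar RNA methyltransferase gene, is shown as an example with its E-box in capitals (chr6:125131633-125131932, + strand, GRCm38.p6):
Nop2: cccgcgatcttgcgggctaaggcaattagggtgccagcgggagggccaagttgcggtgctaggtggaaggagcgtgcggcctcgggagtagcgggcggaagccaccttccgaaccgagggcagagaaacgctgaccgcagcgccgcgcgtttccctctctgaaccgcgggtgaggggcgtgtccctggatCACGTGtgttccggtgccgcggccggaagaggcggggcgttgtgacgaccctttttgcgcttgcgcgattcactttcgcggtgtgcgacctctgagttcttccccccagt
Of all tested genes with the E-box in this window 46.2% fell and 32.3% rose, beside 36.8% and 39.5% of those without.

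Notch pathway genes mostly rose, with exceptions among the ligands and effectors. Of 19 genes 13 rose, 12 of them by at least 2-fold, and 4 fell (median 1.09). Among receptors, Notch1 stood at 277, 264, 268, 258 and 286 CPM in stem cell medium and at 641, 622, 551, 632 and 629 CPM at 6 h (log2 change 1.18, SE 0.049), and Notch3 rose by 1.32. Among ligands, Dll1 stood at 32.8, 36.2, 32.5, 36.3 and 34.9 CPM and then at 209, 205, 186, 212 and 186 CPM (2.53, SE 0.053). Within each condition the 5 Dll1 values lay close together. Dll3 rose by 2.36, whereas Jag1 went from 64.2 ± 3.7 to 23 ± 1.04 CPM. Among effectors, Hes5, the Notch target of neural stem cells, stood at 6.13, 4.78, 3.12, 4.53 and 5.8 CPM and then at 107, 103, 77.3, 118 and 94.6 CPM (4.36, SE 0.18). Heyl, Hey2 and Hey1 rose by 3.46, 2.50 and 1.09, but Hes1, which also answers to other pathways, fell by 0.76. Nrarp, a feedback inhibitor of Notch, went from 30.4 ± 3.23 to 109 ± 10.6 CPM, and overlaps Gm38287 on the other strand, which had 0.854 of its counts. Of the Fringe genes that modify Notch, Mfng rose by 2.89 and Lfng fell by 0.63. Rbpj, the DNA-binding partner of Notch, and Notch2 did not pass. RBPJ binds TGGGAA, and the Hes5 window (chr4:154960673-154960972, + strand, GRCm38.p6) holds it in capitals:
Hes5: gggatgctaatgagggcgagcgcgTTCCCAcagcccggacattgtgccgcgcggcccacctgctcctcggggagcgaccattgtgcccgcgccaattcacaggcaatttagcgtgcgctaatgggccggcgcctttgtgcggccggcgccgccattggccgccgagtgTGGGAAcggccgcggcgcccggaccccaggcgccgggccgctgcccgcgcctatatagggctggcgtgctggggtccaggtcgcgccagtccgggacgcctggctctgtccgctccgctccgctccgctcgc
The same letters were in 4 of 15 Notch pathway genes with a window and in 28.3% of all genes.

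BMP and TGF-beta genes fell more often than they rose: 11 of 21 tested genes fell and 3 rose (median -0.44). The Id genes, which BMPs induce, fell for Id1 (59.8 ± 3.18 to 16.9 ± 2.44 CPM), Id3 (by 0.77) and Id2 (by 0.44). Id4 rose from 2.32 ± 0.371 to 16.6 ± 4.43 CPM. The activin subunit gene Inhba fell by 3.20 and follistatin (Fst), which binds activins, by 1.97. Of 21 tested Wnt and Hedgehog genes 11 rose and 6 fell (median 0.33). The Wnt feedback inhibitors Apcdd1 (2.27 ± 0.271 to 39.8 ± 12.7 CPM) and Nkd1 (15.6 ± 2.47 to 165 ± 32.1 CPM) rose. Axin2, the feedback gene most used as a Wnt readout, stood at 56.5 ± 2.16 and 56.7 ± 5.37 CPM and was not called. The receptor gene Fzd1 fell by 2.42 and the transcription factor gene Tcf7 by 1.89. Ptch1, receptor and target of Hedgehog, rose by 1.60.

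Oligodendrocyte lineage genes had the highest median of the 34 lists at 6 h. Of 23 tested genes 20 rose and 1 fell (median 1.69), and 14 rose by at least 2-fold. The lineage factor gene Sox10 stood at 0.729, 1.88, 0.808, 0.982 and 3.01 CPM in stem cell medium and at 7.73, 12.4, 5.61, 11.4 and 17.1 CPM at 6 h (log2 change 2.86, SE 0.46), and its mean was 51.9 CPM at 18 h and 117 CPM at 48 h. Animals 2 and 5 were the highest in both conditions. The transcription factor gene Zfp488 rose by 3.75 and Olig1 by 0.61. Olig2 stood at 905 ± 60.2 and 908 ± 40.5 CPM and was not called, and Nkx2-2 fell by 0.73. All 7 tested myelin genes of 9 listed rose (median 2.73), although most were still low. Cldn11, a tight junction gene of myelin, went from 0.6 ± 0.178 to 5.73 ± 0.657 CPM and then to means of 3.63 CPM at 18 h and 48.3 CPM at 48 h. Mbp, myelin basic protein, went from 0.825 ± 0.492 to 5.59 ± 2.94 CPM and Cnp from 132 ± 3.42 to 608 ± 77.8 CPM. The progenitor gene Cspg4, which encodes NG2, rose by 1.77.

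Of 22 tested genes of quiescent stem cells and astrocytes 19 rose and 1 fell (median 0.72). The water channel gene Aqp4 stood at 14.9, 12.9, 10.6, 13 and 20.1 CPM in stem cell medium and at 77.4, 67.2, 58.8, 96.7 and 97.4 CPM at 6 h (log2 change 2.47, SE 0.20), and its mean was 615 CPM at 48 h. The calcium-binding protein gene S100b rose by 3.03, the glutamate transporter gene Slc1a2 by 1.40 and glutamine synthetase (Glul) by 1.28. Gfap, the intermediate filament gene of mature astrocytes, stood at 2.55, 2.07, 1.73, 1.99 and 4.74 CPM and then at 2.83, 2.89, 2.03, 3.02 and 5.22 CPM. It was higher at 6 h in all 5 animals, but did not pass (edgeR adjusted p = 0.431). It passed with the replicate block (0.0154) and without stem cell library 5 (0.0352). It reached means of 20.3 CPM at 18 h and 504 CPM at 48 h. Gm26668, a non-coding gene opposite to it, had 4.02 times its counts. Hopx was the fall of the list, with 1.32, and Hopxos on the other strand had 0.435 of its counts.

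Of 15 tested neuroblast genes 6 rose and 2 fell (median 0.17). Without animal 5 the counts were 5 higher and 1 lower, and with the replicate block 7 higher and 4 lower. The fall of Elavl4 and the rise of Gad1 were no longer called under several alternatives. Of 4 tested markers of mature neurons, of 7 listed, 3 rose and 1 fell. Doublecortin (Dcx), a microtubule protein gene of migrating neuroblasts, went from 5.46 ± 1.86 to 17 ± 3.76 CPM and then to means of 45.4 CPM at 18 h and 140 CPM at 48 h. Tubb3 rose by 2.31, but Gm20388 on the same strand covers it and had 6.6 times its counts. Gad2, an enzyme gene of GABA synthesis, fell by 0.96. Among progenitor genes, Sox4 went from 318 ± 26.8 to 1410 ± 167 CPM, with Gm26735 on the other strand at 0.608 of its counts. The related Sox11 fell by 0.93, Insm1 by 1.06 and nestin (Nes) by 0.72. Dlx2 stood at 3 ± 0.361 and 2.29 ± 0.711 CPM and was not called (edgeR adjusted p = 0.0529), but passed as lower with the replicate block (0.00924), with DESeq2 (0.0323) and under other alternatives. The stem cell factor genes Sox2 and Sox9 rose by 0.54 and 0.65. In the retinoic acid pathway 5 of 10 tested genes rose and 2 fell (median 0.09). Of its synthesis genes, Aldh1a3 fell by 2.03 and Aldh1a1 rose by 2.63. Dhrs3 and the breakdown gene Cyp26b1 rose by 3.60 and 5.60.

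**Figure D4:**
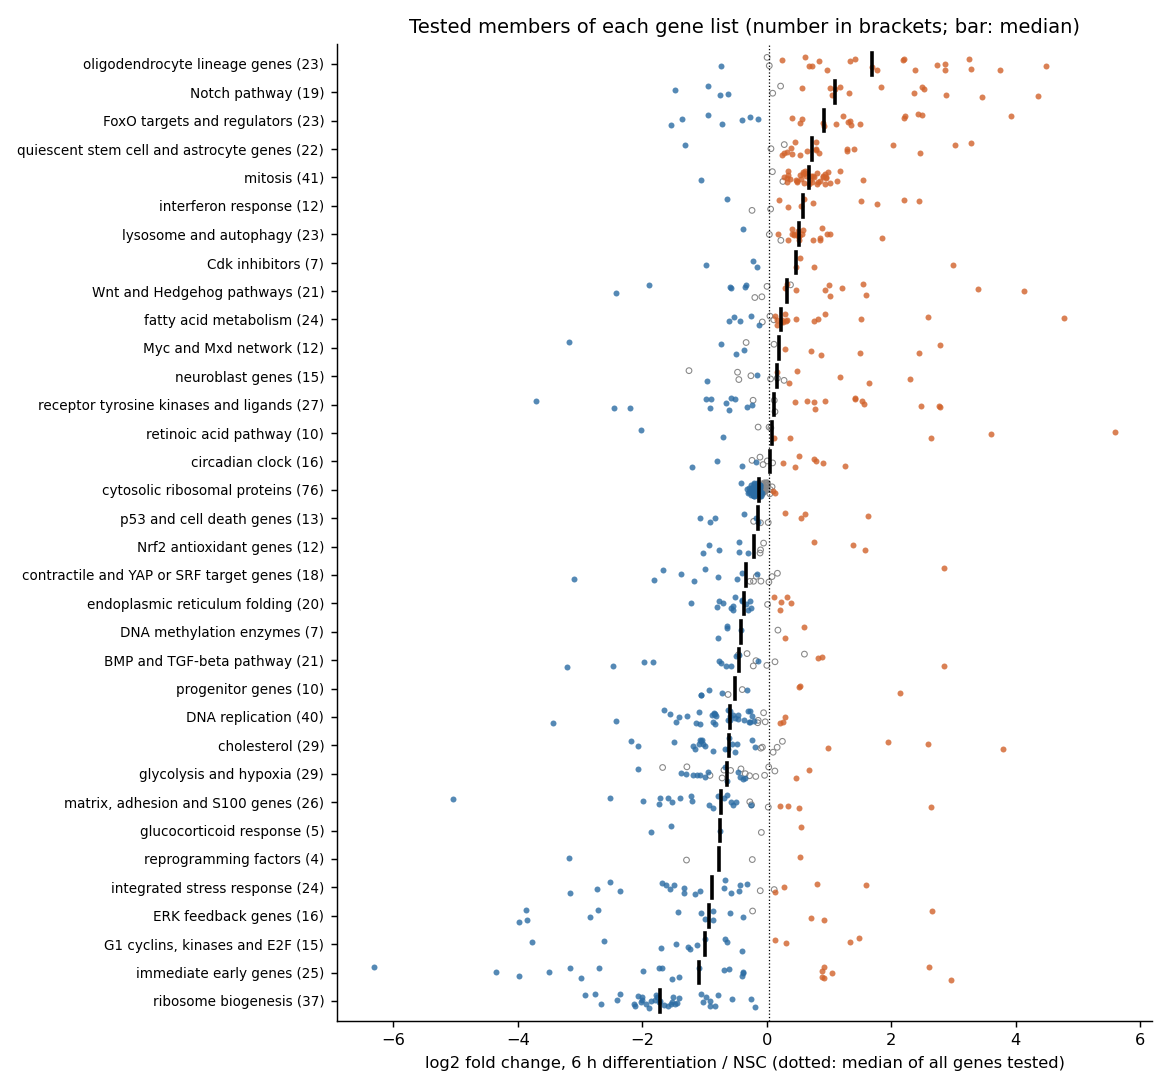
Log2 change from stem cell medium to 6 h of each tested member of 34 gene lists, sorted by the list's median (bar), with the median of all 16949 tested genes (0.031) as a dotted line. Ribosome biogenesis has the lowest median (-1.723) and oligodendrocyte lineage genes the highest (1.688).

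Cholesterol genes split into supply and export. Of 20 synthesis genes 16 fell and none rose (median -0.77), all 4 tested genes of uptake and its regulation fell, and 4 of 5 export genes rose. Sqle, squalene epoxidase, stood at 268, 246, 287, 309 and 261 CPM in stem cell medium and at 139, 130, 165, 121 and 121 CPM at 6 h (log2 change -1.02, SE 0.089), with no overlap. The synthesis genes Hsd17b7 and Msmo1 fell by 2.07 and 1.49. The export pumps Abca1 and Abcg1, targets of the sterol sensor LXR, rose by 1.96 and 2.58. Apoe, the lipid carrier of astrocytes, stood at 23.6, 20.1, 20.4, 19.4 and 64.8 CPM and then at 413, 416, 248, 448 and 533 CPM (3.79, SE 0.43), with animal 5 highest in stem cell medium, and reached a mean of 6370 CPM at 48 h. Without animal 5, 6 of the 29 cholesterol genes rose and 20 fell, and of the synthesis genes 2 rose and 16 fell. With the replicate block 1 synthesis gene rose and 16 fell. Of 13 genes of fatty acid oxidation and ketone synthesis 12 rose (median 0.31), with Pdk4, a brake on glucose oxidation, rising by 2.59. Cpt1a was not called (edgeR adjusted p = 0.0631), but passed as higher with the replicate block (0.0119) and under some other alternatives.

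In glycolysis and hypoxia genes, 14 of 29 fell and 2 rose (median -0.63), and animals differed. Hk2, hexokinase 2, went from 22.6 ± 6.93 to 5.38 ± 2.31 CPM. Ldha, lactate dehydrogenase A, stood at 811, 781, 707, 1220 and 1060 CPM in stem cell medium and at 314, 301, 340, 391 and 420 CPM at 6 h (log2 change -1.38, SE 0.16). Vegfa, a hypoxia target, stood at 89.7, 69.8, 77, 275 and 203 CPM and then at 28.4, 38.4, 25.6, 97.2 and 104 CPM, and the lactate exporter gene Slc16a3 at 11.8, 7.41, 3.18, 57.9 and 57.6 CPM and then at 2.11, 3.07, 1.63, 20.3 and 16.4 CPM. Animals 4 and 5 were the highest of their group in both conditions for these 2 genes, so the groups overlapped although every animal was lower at 6 h. Neither passed in the edgeR fit without a term for the animal (adjusted p = 0.0785 and 0.183). Vegfa passed as lower with DESeq2, also without that term (adjusted p = 0.044). Both passed with the replicate block (adjusted p = 0.000523 and 0.000604), under which 20 of the 29 genes fell and 3 rose.

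Listed genes of the integrated stress response, which supplies amino acids through the factor ATF4, mostly fell at the RNA level. Of 24 genes 18 fell and 4 rose (median -0.89). Atf4 stood at 167, 165, 173, 168 and 159 CPM in stem cell medium and at 75.9, 75.7, 84.9, 68.9 and 69.8 CPM at 6 h (log2 change -1.15, SE 0.054), with no overlap. The arginine and lysine transporter gene Slc7a1 fell by 3.16, the pseudokinase gene Trib3 by 2.73, the mitochondrial folate enzyme gene Mthfd2 by 2.35 and asparagine synthetase (Asns) by 1.68. Ddit4, an inhibitor of mTORC1, rose from 95.9 ± 16.2 to 290 ± 49.7 CPM, and Sesn2 rose by 0.81. ATF4 binds C/EBP-ATF elements, and TGATGCAA was in 5 of 23 of these promoter windows (21.7%, beside 1.03% of all genes). Nupr1, a stress-induced chromatin protein gene that fell by 1.50, holds it in capitals (chr7:126625421-126625720, - strand, GRCm38.p6):
Nupr1: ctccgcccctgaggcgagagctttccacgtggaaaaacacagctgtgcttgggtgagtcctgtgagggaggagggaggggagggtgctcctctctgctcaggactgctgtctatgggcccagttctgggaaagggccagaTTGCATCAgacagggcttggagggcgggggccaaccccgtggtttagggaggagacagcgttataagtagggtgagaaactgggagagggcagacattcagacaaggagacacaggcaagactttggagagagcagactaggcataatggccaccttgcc
Of 20 folding genes of the endoplasmic reticulum 14 fell and 5 rose (median -0.37), with the chaperone gene Hspa5 lower by 0.76 and Xbp1 by 1.21. Of 12 Nrf2 antioxidant genes 6 fell and 3 rose, with Nqo1 and Gsta4 up by 1.38 and 1.58 and Gclc down by 1.02.

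Matrix and adhesion genes fell and lysosomal genes rose. Of 26 matrix, adhesion and S100 genes 19 fell and 4 rose (median -0.73), and without animal 5 the same test called 19 lower and 2 higher. Tenascin C (Tnc), a matrix protein of the stem cell niche, stood at 1670, 1700, 1930, 1630 and 1480 CPM in stem cell medium and at 272, 289, 265, 363 and 282 CPM at 6 h (log2 change -2.52, SE 0.094). Plaur, the urokinase receptor gene, fell by 5.04, annexin A2 (Anxa2) by 1.73 and the hyaluronan receptor gene Cd44 by 1.40, and Itga2 rose by 2.63. Of 18 contractile and YAP or SRF target genes 10 fell and 1 rose (median -0.33): Acta2 went from 52.8 ± 16.8 to 16.6 ± 4.16 CPM, and Amotl2 from 14.5 ± 1.65 to 104 ± 11.3 CPM. Of 23 lysosome and autophagy genes 20 rose and 1 fell (median 0.52). The cholesterol transporter gene Npc1 went from 126 ± 1.91 to 453 ± 38.8 CPM, Map1lc3b, the gene of the autophagosome protein LC3B, rose by 1.01 and the autophagy kinase gene Ulk1 by 0.96. The autophagy regulator gene Tfeb was not called (edgeR adjusted p = 0.0717), but passed as higher with the replicate block (0.0271) and under some other alternatives, and Rragd fell by 0.38.

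Among smaller lists, 4 of 13 p53 and cell death genes rose and 6 fell. The pro-apoptotic Bbc3, the gene of PUMA, went from 15.7 ± 1.07 to 48.2 ± 5.53 CPM, while the survival genes Bcl2l1, Bcl2 and Mcl1 fell by 1.07, 0.92 and 0.84. The p53 target Mdm2 fell by 0.37. Of 16 circadian clock genes 7 rose and 4 fell (median 0.05). Of 5 glucocorticoid response genes 3 fell, among them Fkbp5 (76.5 ± 1.7 to 26.3 ± 2.69 CPM) and Sgk1 (by 1.86), and Tsc22d3 rose by 0.54. Of 12 interferon response genes 9 rose and 1 fell (median 0.58), with Ifit1 at only 0.0402 ± 0.0156 and 0.229 ± 0.0504 CPM. The maintenance DNA methyltransferase gene Dnmt1 fell by 0.78 and Tet2, which oxidises methylcytosine, rose by 0.60. Of the 4 endogenous reprogramming factor genes Myc fell and Sox2 rose. Klf4 (6.25 ± 0.911 and 5.33 ± 1.24 CPM) and Pou5f1 were not called (edgeR adjusted p = 0.169 and 0.0926). Both passed as lower with the replicate block (0.0146 and 0.0144) and without some libraries. In untreated old cells, and in young cells without animal 5, only 3 of the 4 genes had enough counts to be tested. Gm19553, on the strand opposite to Pou5f1, had 0.477 of the counts of Pou5f1.

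The change was set beside that in doxycycline-treated old cells, labelled 6 h in both media, which shares no library with the young comparison. Here 7039 of 17014 genes rose (41.4%) and 6685 fell (39.3%). Of all 12695 genes called in young cells, 84.4% were called in the same direction here, and of the calls in the old doxycycline cells 78.0% were called the same way in young cells (10709 genes the same way, 457 opposite). Among genes tested in both, of those at least 2-fold higher in young cells 93.4% were higher and 20 were lower, and of those at least 2-fold lower 92.6% were lower and 15 were higher. Across 16684 genes, which are not independent replicates, Pearson's r of the log2 changes was 0.86. Age, doxycycline and the time label all differ from the young comparison, and the difference between the 2 changes was not tested.

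Several lists had other values at matched time labels. ERK feedback genes had the same counts (12 lower, 3 higher of 16) and ribosome biogenesis genes all fell again (median -2.52 beside -1.72). Mitosis genes rose in 25 of 41 and fell in 2 (median 0.37 beside 0.67), and replication genes fell in 23 of 40 and rose in 8 (median -0.32 beside -0.59). The 15 G1 genes had 7 lower and 5 higher (median -0.09 beside -0.99). Ccne1, which fell by 1.27 in young cells, had a log2 change of 0.34 there. The median of the cholesterol list was -2.10 beside -0.60, with Sqle at -2.31 beside -1.02 and Abcg1 at 7.11 beside 2.58. The clock list had 11 higher and 5 lower (median 1.20 beside 0.05). Per3 and Dbp had 3.74 and 3.04 beside 1.25 and 0.76, and Arntl, the gene of BMAL1, -2.12 beside 0.46. Per3 lies within Camta1 on the same strand, whose counts were 0.499 of its own, and Sphk2, on the strand opposite to Dbp, had 1.06 times the counts of Dbp. Glycolysis and hypoxia genes had 14 higher and 12 lower (median -0.03 beside -0.63), and contractile genes 17 lower and 1 higher (median -1.46 beside -0.33).

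**Figure D5:**
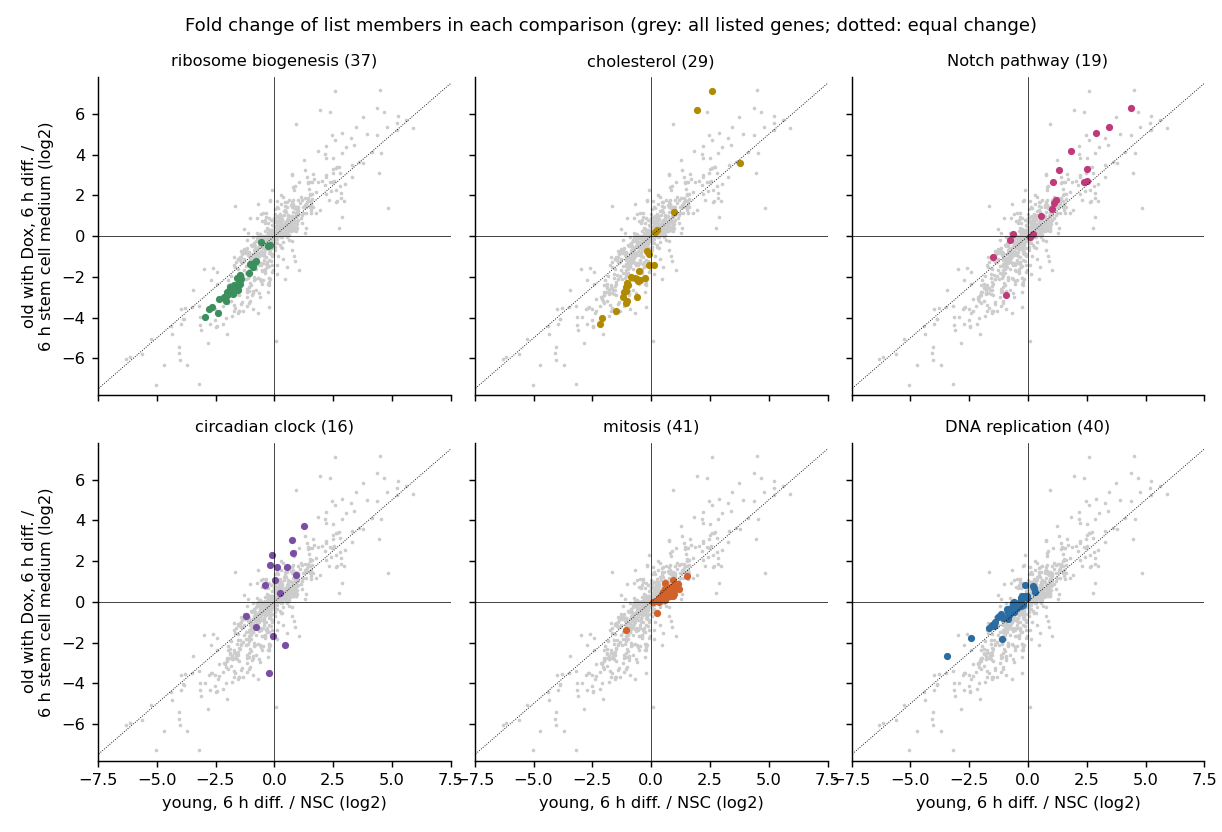
Log2 change in young cells (6 h of differentiation against stem cell medium labelled 18 h, x axis) against that in old doxycycline cells (both labelled 6 h, y axis), with members of 6 lists in colour, all listed genes in grey and the line of equal change dotted. Ribosome biogenesis genes lie low on both axes (medians -1.723 and -2.521), and cholesterol and clock genes spread further on the y axis.

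The same conditions were compared in untreated old cells. Of 16972 genes tested in 4 old animals, 6476 rose (38.2%) and 6346 fell (37.4%), and across 16757 genes in both tests Pearson's r was 0.97. Of all young calls 91.7% were called the same way in old cells, and of the old calls 90.8% were called the same way in young cells (11637 genes the same way, 2 opposite). Of the mitosis genes 30 of 41 rose and 1 fell in old cells. The test of the difference between ages over all 18 libraries called 8 of 17619 genes (0.0454%), 7 with a lower and 1 with a higher log2 change in old cells, and 1185 genes had an unadjusted p under 0.05. DESeq2 called 16, and the fit with the replicate block 29. Among listed genes, Gadd45b went from 1.57 ± 0.17 to 12.1 ± 1.47 CPM in young cells and from 2.39 ± 0.237 to 10.2 ± 1.12 CPM in old cells (SD, n = 5 and 4). Slc7a5, an amino acid transporter gene of the stress response list that Gm20388 overlaps on the other strand with 1.17 times its counts, went from 192 ± 8.92 to 153 ± 7.51 CPM in young and from 288 ± 26.4 to 164 ± 2.81 CPM in old cells. In both genes, and in Chac1 of the same list, the ages stood further apart, as a ratio, in stem cell medium than at 6 h. The number of called genes ranged from 0 to 9 when each animal was left out in turn.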

How the data were processed

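The authors' deposited table holds whole-number counts per gene for 65 libraries of a stranded mRNA kit, 31057 features, of which 31011 were named from GENCODE M21. Per the submitters' processing notes, the tools were STAR 2.7.10b on mm10 and Trim Galore 0.6.6, with DESeq2 1.40.1, Subread and SAMtools also named. Roles, counting settings and strand are not given in the sources used here. Values of 2 (75644) outnumbered values of 1 (19963), so most fragments seem to be counted as 2 reads. The authors' deposited variance-stabilised values are on a log2 scale and served as an alternative only.

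Here edgeR 4.0.16 (R 4.3.3) tested the 10 libraries: TMM scaling, genes kept by filterByExpr (min.count 10), glmQLFit in its robust form, and p adjusted by Benjamini-Hochberg over every gene tested, with calls under 0.05. Columns were assigned by group and animal names. SE is the log2 change divided by the root of F. CPM is not per length, so levels are compared within a gene only. DESeq2 1.42.0, limma 3.58.1 and other filters, scalings and left-out libraries were alternatives. The script was tested on simulated data. With 5 against 5 and no pairing, the smallest exact permutation p is 0.00794.

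The animal number pairs the libraries: same-numbered libraries come from the same animal, and their deviations from the group means had correlations of 0.404 to 0.686 over 11626 genes. The paired fit with the animal as a replicate block called 6733 genes higher and 6391 lower.

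Genes named were the 12 largest called changes per direction with a mean of at least 5 CPM, groups that do not overlap and no predicted-gene name, the key genes of the lists, and each list's highest and lowest member. The other list members named, the ribosomal protein and marker genes among them, were chosen after their values were seen. Members, lists and markers were chosen with earlier results of these data known. A few genes that this rule names are not reported here.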

Additional observations from a re-analysis of the deposited data

Results flagged for a closer look

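In 44 of 466 groups of 5 libraries (9.44%), the highest or lowest library lay far from the other 4 for a named gene, by Dixon's criterion at 0.71. Chance alone gives about 1 in 20. The library of animal 5 in stem cell medium accounted for 20 of them. It was lower than the others in Etv5 (581 CPM), E2f1 (21.9 CPM), Cdkn2c (55.5 CPM), Cdk1 (70.4 CPM), Mki67 (262 CPM), Top2a (260 CPM), Fkbp5 (73.6 CPM), Ung (29.1 CPM) and Slc7a1 (122 CPM). It was higher than the others in Hmga2 (99.9 CPM), Srxn1 (45.1 CPM), Fn1 (142 CPM), Plaur (8.42 CPM), Gfap (4.74 CPM), Cspg4 (74.6 CPM), Aldh1a3 (72.6 CPM), Ctsd (518 CPM), B2m (87.1 CPM), Cdkn2b (64.1 CPM) and Apoe (64.8 CPM). At 6 h, animal 5 was lower in Ccnb1 (102 CPM), Plk1 (93.5 CPM), Cdc20 (92.1 CPM) and Ccnb2 (49.7 CPM) and higher in Irs2 (39.5 CPM), Klf9 (47.5 CPM) and Cdkn2b (28 CPM).

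The other 17 values were spread over libraries. In stem cell medium, animal 1 was high in Cyp26b1 (0.486 CPM), animal 3 was high in Rrp12 (33 CPM) and animal 4 was low in Ncl (881 CPM) and Id4 (1.68 CPM) and high in Ccng2 (27.6 CPM), Bcl6 (17.4 CPM) and Insig1 (216 CPM). At 6 h, animal 1 was high in Gadd45b (14.7 CPM), animal 3 was low in Insr (51.7 CPM), Abca1 (194 CPM) and Notch1 (551 CPM) and high in Asns (37.9 CPM) and animal 4 was high in Sesn1 (60.2 CPM), Inhba (0.0495 CPM), Col4a1 (215 CPM), Tnc (363 CPM) and Dlx2 (3.54 CPM). No animal 2 library was among them.

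The change from stem cell medium to 6 h differed between ages in 8 genes by edgeR's test of the interaction. The difference is the old log2 change minus the young. G0s2, an inhibitor of lipolysis, had log2 changes of 1.93 in young and 1.34 in old cells (difference -0.58, adjusted p = 0.0285). Chac1, a glutathione-degrading stress gene, had log2 changes of -1.33 in young and -2.31 in old cells (difference -0.98, adjusted p = 0.0164). Erf, an ETS repressor that ERK controls, had log2 changes of -0.79 in young and -1.24 in old cells (difference -0.44, adjusted p = 0.0149). Gadd45b, a stress and early response gene, had log2 changes of 2.96 in young and 2.10 in old cells (difference -0.85, adjusted p = 0.0285). Slc7a5, an amino acid transporter gene, had log2 changes of -0.32 in young and -0.81 in old cells (difference -0.48, adjusted p = 0.0149). Ets1, an ETS activator, had log2 changes of 1.50 in young and 1.01 in old cells (difference -0.48, adjusted p = 0.0164). Jdp2, an AP-1 repressor, had log2 changes of 0.23 in young and -0.31 in old cells (difference -0.53, adjusted p = 0.0285). Hunk, a kinase gene, had log2 changes of -1.13 in young and -0.53 in old cells (difference 0.61, adjusted p = 0.0149). Erf, Ets1, G0s2, Jdp2 and Hunk are on none of the lists and are named here because the test called them.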

How the results depend on the processing

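The counts of genes higher and lower stayed within 1.5 times under each scaling, filter, tool, covariate and left-out library tried, with 6128 to 6321 higher and 5845 to 6181 lower when an animal was left out. Library totals without TMM factors moved the median of all genes from 0.031 to 0.056. The counts past 2-fold fell to 599 higher and 684 lower with the variance-stabilised values in limma, and the cause was not tested. The replicate block gave 6733 and 6391. It changed the counts of a list by more than 2 for glycolysis and hypoxia genes, as given above, and for ribosomal protein genes (53 lower and 2 higher). Without animal 5 the counts of a list changed by at most 2.

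Of 241 named genes under 24 alternatives, 5621 values kept direction and side of the threshold, 62 passed newly, 44 no longer passed and 41 changed sign. The lost calls were all in Elavl4, Fasn, Nr1d1 and H2-K1, called lower, and Gad1 and Rarb, called higher. Without animal 2, for example, edgeR gave log2 changes of -0.137 for Elavl4 (adjusted p = 0.138) and 0.248 for Gad1 (adjusted p = 0.186). Sign changes were in genes not called: Axin2 (-0.01 with RLE size factors, -0.011 with DESeq2, -0.015 without filter, -0.004 with variance-stabilised values), Olig2 (-0.01, -0.011 and -0.016 with the first 3) and Per2 (-0.007, -0.008 and -0.013). When 1 animal or library was left out, the log2 change ranged from -0.073 to 0.045 for Axin2, -0.04 to 0.109 for Bcas1, -0.047 to 0.043 for Olig2, -0.022 to 0.067 for Per2, -0.063 to 0.18 for Pgk1 and -0.304 to 0.015 for Slc2a1.

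The number of genes whose change differed between ages was 16 with DESeq2, 29 with the replicate block, and 0 to 9 without 1 animal (0 without young animal 1 and without old animals 3 or 4). The difference in mitochondrial share (6 h minus stem cell medium, in percentage points) ranged from -0.00495 to 0.193, and that in ribosomal RNA share from -0.134 to 0.214, when an animal was left out. Genes near the minimum count carry most counting error.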
